A study of Mus musculus with 8 samples.

Results

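Mitochondrial ribosomal protein genes (MRP genes) are nuclear genes whose products are imported into mitochondria and assembled there into a separate ribosome. They were taken as all genes of the deposited expression table with a symbol made of Mrps or Mrpl, a number and at most 1 further letter. The rule found 76 of 22744 genes, 29 named for the small and 47 for the large subunit, and they are called members below. RNA came from whole testes of C57BL/6 mice at postnatal day 8 (P8), in 3 wild-type libraries and 3 libraries from animals labelled Dmrt6 null. Dmrt6, listed as Dmrtb1, encodes a transcription factor of male germ cells, from the DMRT family named after doublesex and mab-3. The labels do not describe the null allele, and the null is not restricted by them to a cell type. By the design text, replicates are biological. Binding data came from adult wild-type testis on a background labelled C57BL/6, Mixed, as 1 library of chromatin immunoprecipitation (ChIP), for which a rabbit antibody to DMRT6 was used, and 1 input library. The study compared the genotypes at P8 and mapped DMRT6 binding in the adult.

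The mitochondrial ribosome translates the few proteins encoded by mitochondrial DNA, all of them subunits of the respiratory chain and ATP synthase. Its ribosomal RNAs come from the mitochondrial genome, so its supply draws on both genomes. Many of its proteins are counterparts of bacterial ribosomal proteins, and others occur only in mitochondria. Symbols do not always match the structure: the products of Mrps30 and Mrps18a sit in the large subunit, and that of Mrps36 is now known as a part of the 2-oxoglutarate dehydrogenase complex. Promoters of nuclear genes for mitochondria often carry sites for the factors NRF1, GABPA of the ETS family, and YY1.

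Because the results below turn on both expression and binding at gene starts, 4 promoters are shown first. They belong to the members with the highest peak scores among those with a DMRT6 ChIP peak within 100 bp of the gene's 5′ end and a single start in the RefSeq table. Each line gives the 250 bases before the RefSeq start, 5′ to 3′ in the direction of the gene, from build GRCm38.p6. The positions are chr5:100798509-100798758 on the plus strand for Mrps18c, chr11:120484387-120484636 on the plus strand for Mrpl12, chr13:99344536-99344785 on the plus strand for Mrps27 and chr4:49521084-49521333 on the minus strand for Mrpl50. Capitals mark matches, on either strand, to 6 short patterns that are spelled out with the promoter results. The peaks are in build mm9, so their place within these lines is not given.
Mrps18c: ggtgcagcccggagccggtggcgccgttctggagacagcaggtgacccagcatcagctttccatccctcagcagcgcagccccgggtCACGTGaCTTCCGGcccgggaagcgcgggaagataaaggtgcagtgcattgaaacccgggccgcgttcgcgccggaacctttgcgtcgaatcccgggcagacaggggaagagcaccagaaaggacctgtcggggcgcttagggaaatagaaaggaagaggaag
Mrpl12: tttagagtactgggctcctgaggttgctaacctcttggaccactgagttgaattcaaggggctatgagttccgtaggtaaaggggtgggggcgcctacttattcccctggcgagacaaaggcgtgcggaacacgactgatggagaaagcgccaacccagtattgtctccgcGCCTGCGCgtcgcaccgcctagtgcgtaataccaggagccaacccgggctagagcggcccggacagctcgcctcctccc
Mrps27: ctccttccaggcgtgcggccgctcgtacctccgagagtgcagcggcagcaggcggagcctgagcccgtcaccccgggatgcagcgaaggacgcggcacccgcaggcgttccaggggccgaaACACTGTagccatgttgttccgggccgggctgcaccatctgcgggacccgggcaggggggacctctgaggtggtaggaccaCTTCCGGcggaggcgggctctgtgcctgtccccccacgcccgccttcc
Mrpl50: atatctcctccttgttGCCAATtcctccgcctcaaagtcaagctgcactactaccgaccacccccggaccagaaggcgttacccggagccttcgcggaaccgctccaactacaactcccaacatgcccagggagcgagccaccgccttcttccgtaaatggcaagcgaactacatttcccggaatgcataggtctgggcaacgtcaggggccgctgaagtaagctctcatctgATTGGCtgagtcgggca

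In these lines Mrps18c has an E-box and an ETS match next to each other, between 163 and 150 bases before the start. The line of Mrpl12 has an NRF1 match from 79 to 72 bases before it. That of Mrps27 holds a match to the DMRT core from 129 to 123 bases before the start and an ETS match from 48 to 42. Mrpl50 has NF-Y matches on opposite strands, the nearer one from 17 to 12 bases before the start. Of the 4 lines, that of Mrps27 is the one with a DMRT core match.

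Levels are log2 CPM, a log scale of reads relative to library size, and differences are null minus wild type on that scale, with the standard error (SE) of the limma model. CPM is not scaled to transcript length, so a level compares libraries, not genes. The libraries held 23.8 to 29.0 M reads in the table. Dmrtb1, the targeted gene, drew 194, 510 and 254 reads from wild-type replicates 1 to 3, whereas null replicates 1 to 3 gave 14, 25 and 26. Its difference was -3.78 ± 0.36 (SE), with an adjusted p of 0.0516 (limma, Benjamini-Hochberg over all tested genes). Null replicate 3 stood apart from the other libraries over all tested genes, at 54.3 on the first principal component against -20.2 to 1.68 for the other 5. It was the library with the highest value for 34.5% of tested genes and with the lowest for 34.0%. Counts or medians of gene lists, and the differences of some single genes, are also given without it. Values of other single genes come from all libraries, and how far they rest on it is not given. All 16 germ cell and all 12 Sertoli cell markers listed were detected, as the tissue label says.

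Of the 76 members, 75 reached the mean of 0 log2 CPM set for testing. The exception was Mrpl53, whose wild-type libraries held 2, 2 and 3 reads and whose null libraries held 3, 2 and 0. In wild type the quartiles of the tested members lay at 4.99 and 5.79 log2 CPM, and 64 of the 75 lay between 4 and 6. At the upper end of read abundance, not corrected for length, wild-type means were 6.42 for Mrpl37, 6.29 for Mrps17, 6.26 for Mrps5, 6.02 for Mrps9 and 6.00 log2 CPM for Mrpl15. At the lower end, beside Mrpl53, they were 2.21 for Mrps34, 3.71 for Mrpl23, 3.83 for Mrpl34 and 3.86 log2 CPM for Mrps36. Mrpl53 and Mrps34 lie wholly inside the span of another gene, Mrpl53 inside Ccdc142 on the same strand and Mrps34 inside Mapk8ip3 on the opposite strand. Mrpl17 also lies wholly inside another gene, Gm15645 on the opposite strand, and measured 5.69 ± 0.02 (SD, n = 3) in wild type. In all 29 members overlapped another gene, 24 of them on the opposite strand alone and 5 on the same strand. How the authors assigned reads from shared stretches is not given in the sources used here, so values of such members are uncertain.

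No member passed an adjusted p of 0.05 between genotypes (limma), against 0.00601% of all 16634 tested genes, which is 1 gene. Adjusted p-values of members ran from 0.755 to 0.997, and voom on the reads recovered from the table also called 0 members. At an unadjusted p below 0.05, 2 members were lower in null, Mrpl13 and Mrpl33, and none was higher; of all tested genes 1.85% were lower at that level. The differences were small, from -0.29 to 0.26, with a median SE of 0.12. Over all members the 95% intervals of the difference reached from -0.65 to 0.59, so no member had an interval that allowed a change of 1 log2 unit.

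The members nevertheless leaned one way. In null 66 of the 75 were lower and 9 higher, whereas 48.3% of all tested genes were lower. The median member difference was -0.11, beside 0.01 for all tested genes. Neither subunit stood out: 25 of 29 small-subunit members were lower, with a median of -0.09, and 41 of 46 large-subunit members, with a median of -0.11. The plot of differences by subunit shows this shift and how far the standard errors reach across 0. In bulk tissue, fewer cells of a type and less RNA per cell cannot be told apart. The lean depended on 2 libraries, as described after the single members.

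**Figure D1:**
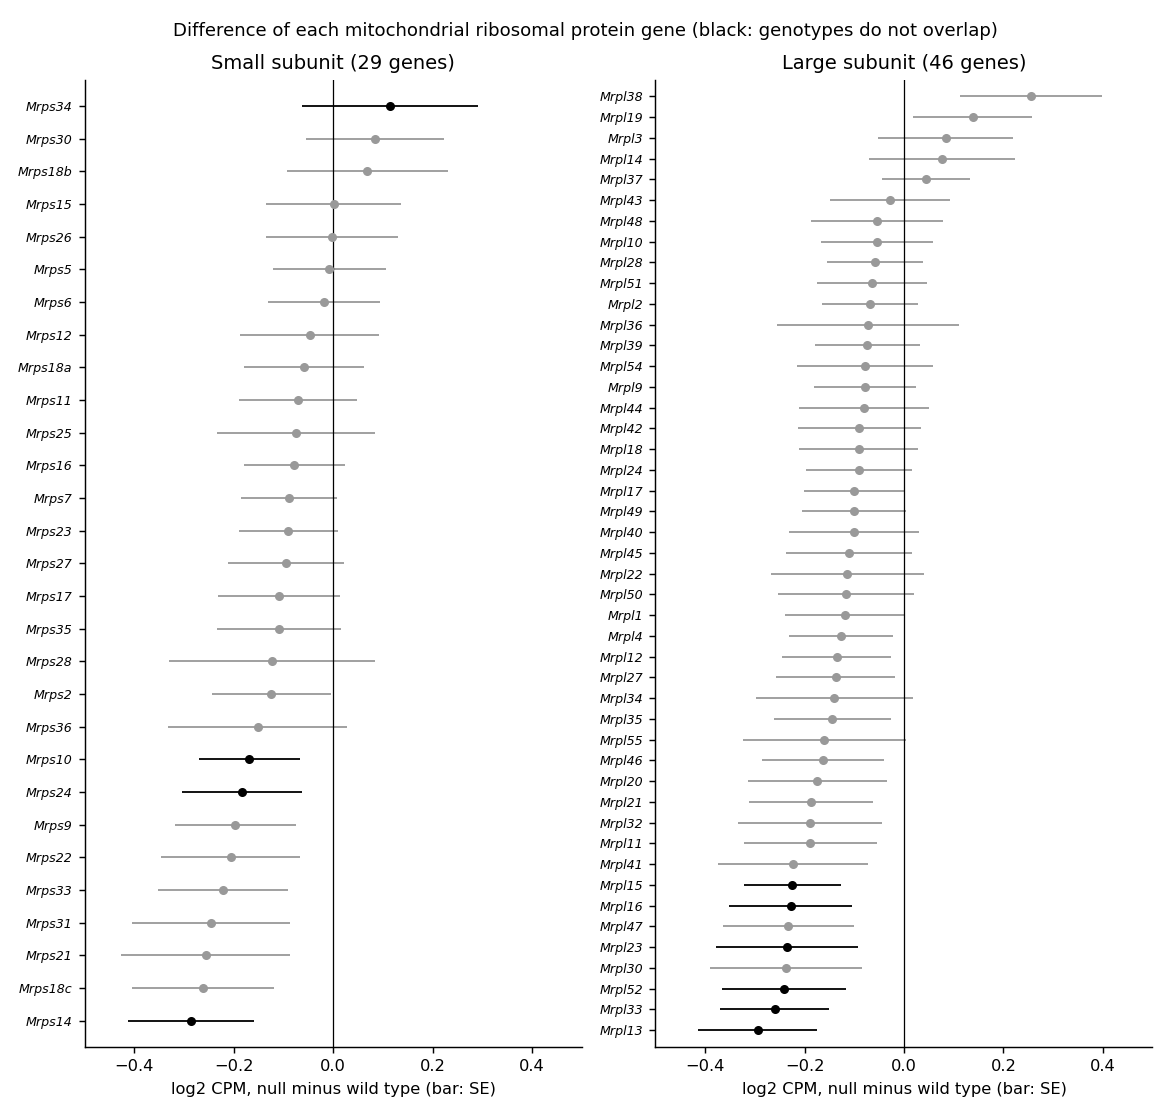
Difference in log2 CPM, null minus wild type, for each of the 75 tested members by the subunit of their symbol, with bars for the SE of the limma model. Black points are members whose 3 null and 3 wild-type libraries do not overlap; 66 points lie below 0, and no difference passed the adjusted threshold.

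Among large-subunit members that were lower in null, the smallest p-values belonged to Mrpl13, Mrpl33, Mrpl15, Mrpl52, Mrpl16 and Mrpl47. Mrpl13, a counterpart of a bacterial large-subunit protein, measured 5.84, 5.92 and 6.00 log2 CPM in the wild-type libraries, given here and below from replicate 1 to 3, and 5.71, 5.74 and 5.43 in the null ones. All 3 null libraries lay below the lowest wild-type one, with replicate 3 farthest down, and the difference was -0.29 ± 0.12 (SE; adjusted p = 0.755, limma). Mrpl33, also with a bacterial counterpart, measured 5.92, 5.78 and 5.91 in wild type and 5.71, 5.64 and 5.47 log2 CPM in null. Its groups were separate too, at -0.26 ± 0.11 (SE; adjusted p = 0.755, limma). Since 74% of its span is shared with Rbks and Bre, 1 of them on the same strand, the source of those reads is uncertain.

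Mrpl15, another protein with a bacterial counterpart, had the tightest groups of these genes, with 5.96, 5.99 and 6.05 log2 CPM in wild type and 5.78, 5.86 and 5.69 in null. The groups did not overlap, and the difference was -0.22 ± 0.10 (SE; adjusted p = 0.755, limma). Mrpl52, a protein found only in mitochondrial ribosomes, measured 5.52, 5.39 and 5.65 in wild type and 5.35, 5.38 and 5.11 log2 CPM in null. Its highest null value lay only just under its lowest wild-type value. For Mrpl16, a counterpart of a bacterial protein, wild type gave 5.27, 5.39 and 5.50 and null 5.27, 5.20 and 4.998 log2 CPM, so that replicate 1 of either genotype was nearly level. Mrpl47 gave 5.03, 5.20 and 5.19 in wild type and 4.95, 5.06 and 4.71 in null, and its groups overlapped. Without null replicate 3 the differences of Mrpl13, Mrpl33 and Mrpl15 were -0.20, -0.19 and -0.18. Those of Mrpl52, Mrpl16 and Mrpl47 went from -0.24, -0.23 and -0.23 to -0.16, -0.15 and -0.13.

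Small-subunit genes with the smallest p-values were Mrps14 and Mrps18c. Mrps14, whose bacterial counterpart lies in the head of the small subunit, measured 5.83, 5.86 and 6.14 log2 CPM in wild type and 5.73, 5.73 and 5.51 in null. No null library reached the lowest wild-type one, and the difference was -0.29 ± 0.13 (SE; adjusted p = 0.755, limma). Here the third library of each genotype stood apart from its other two, upward in wild type and downward in null. Mrps18c belongs to a family of 3 related proteins that occupy different places in the ribosome. Its values were 4.88, 4.90 and 5.18 in wild type and 4.74, 4.88 and 4.54 log2 CPM in null, at -0.26 ± 0.14 (SE), with overlap through null replicate 2. Without null replicate 3 the differences were -0.21 for Mrps14 and -0.17 for Mrps18c.

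The relatives of Mrps18c lay nearer 0. Mrps18a measured 4.74, 4.91 and 4.83 log2 CPM in wild type and 4.89, 4.70 and 4.71 in null, a difference of -0.06 ± 0.12 (SE). Mrps18b measured 4.10, 4.53 and 4.49 in wild type and 4.48, 4.57 and 4.27 in null, a difference of 0.07 ± 0.16 (SE). The intervals of all 3 include 0, and the differences between the relatives were not tested.

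On the other side, Mrpl38 had the largest positive difference. This mitochondria-specific protein lies in the central protuberance of the large subunit. It measured 5.45, 5.59 and 5.42 log2 CPM in wild type and 5.63, 5.57 and 6.03 in null, a difference of 0.26 ± 0.14 (SE; adjusted p = 0.755, limma). Null replicate 3 was the high library, and null replicate 2 lay within the wild-type range. Without null replicate 3 the difference was 0.11. Mrpl19 gave 4.80, 4.95 and 4.96 in wild type and 5.17, 4.93 and 5.02 in null, at 0.14 ± 0.12 (SE). Mrps34, a mitochondria-specific small-subunit protein, measured 2.06, 2.29 and 2.28 in wild type and 2.34, 2.30 and 2.33 log2 CPM in null. It was the only member of the 75 with all null libraries above all wild-type ones, at 0.11 ± 0.18 (SE), and it is the one that lies inside Mapk8ip3. Mrpl3, Mrps30, Mrpl14, Mrpl37 and Mrps18b followed with differences of 0.08, 0.08, 0.08, 0.04 and 0.07, and Mrps15 lay at 0.00. In the fit without null replicate 3, Mrpl37 was at 0.01 and Mrps18b at 0.15.

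**Figure D2:**
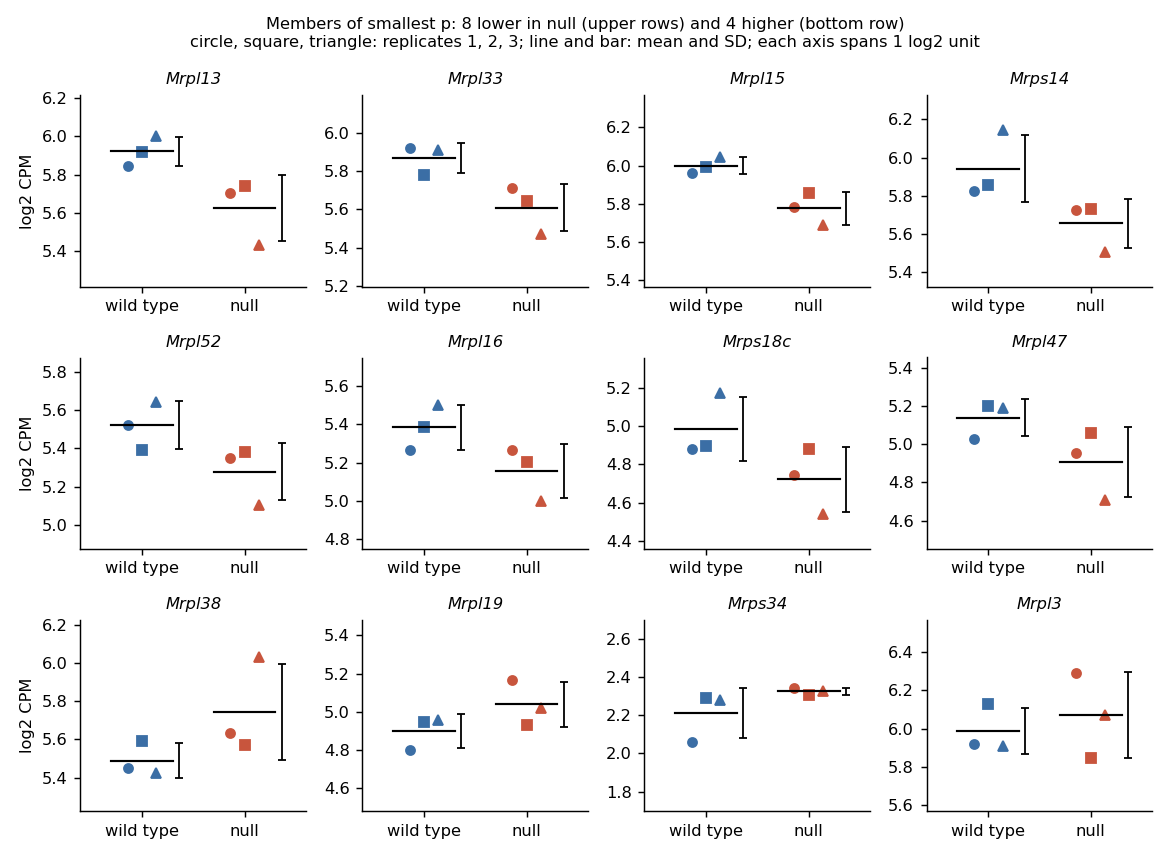
Level of 12 members in each library, in log2 CPM, with blue for wild type and red for null, a symbol for each replicate number, the group mean as a line and its SD as a bar. The 8 members in the upper rows are those of smallest p with a lower null mean and the 4 in the bottom row those with a higher one; triangles, replicate 3, are often highest in wild type and lowest in null.

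Counting members whose genotypes did not overlap, 9 were lower in null: Mrpl13, Mrpl33, Mrpl15, Mrps14, Mrpl52, Mrpl16, Mrps10, Mrpl23 and Mrps24. Of all tested genes, 6.02% were separate in that direction. For the higher direction the count was 1, Mrps34, beside 5.06% of all tested genes. Mrps10 measured 5.48, 5.57 and 5.62 log2 CPM in wild type and 5.41, 5.34 and 5.42 in null, so its separation did not come from null replicate 3. Mrpl23, whose bacterial counterpart lies at the exit tunnel of the large subunit, measured 3.74, 3.67 and 3.71 in wild type and 3.33, 3.49 and 3.59 in null. There null replicate 1, not replicate 3, was the lowest. Mrps24 measured 5.01, 5.06 and 5.28 in wild type and 4.88, 5.01 and 4.90 in null.

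By median, members departed most from their mean in the replicates numbered 3. Relative to each gene's mean over the 6 libraries, the median member stood at -0.02, 0.04 and 0.16 log2 units in wild type, from replicate 1 to 3, and at 0.00, -0.01 and -0.17 in null. Wild-type replicate 3 was the highest library for 50 of the 75 members, against 17.3% of all tested genes. Null replicate 3 was the lowest for 50 members, against 34.0% of all tested genes. Between libraries of the same genotype, wild-type replicate 3 exceeded replicate 1 in 63 members, by a median of 0.16, and null replicate 3 lay below null replicate 1 in 67, by a median of 0.18. Between genotypes, null replicate 1 lay below wild-type replicate 1 in 30 of 75, with a median difference of 0.03. That pair joins the wild-type library of lowest median, -0.02, to the null library of highest median, 0.00. By these medians it is the pair that shows the lean least. The other wild-type libraries, at 0.04 and 0.16, had higher medians than every null library. Other pairs between genotypes were not counted member by member. The median spans of 0.16 and 0.18 within a genotype were wider than the median difference between genotype means, -0.11. Each span lies between single libraries at the extremes, which spread more than means of 3 libraries do. The comparison therefore does not weigh the genotype difference.

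Leaving libraries out restates the values above and is no separate test. Wild-type replicate 3 had the highest median and null replicate 3 the lowest, so the lean had to shrink without either. Without null replicate 3 the median difference was -0.06, with 58 of 75 lower, and without wild-type replicate 3 it was -0.06, with 60 lower. Without both, an alternative chosen after seeing the data, it was -0.02, with 46 of 75 lower, and the separate members numbered 10 lower and 7 higher. For that set of 4 libraries, 13.7% of all tested genes were separate downward and 13.6% upward. With null replicate 3 alone left out, 9 members were separate downward and 1 upward, beside 8.40% and 8.49% of all tested genes. With wild-type replicate 3 alone left out, 10 were separate downward and 2 upward, beside 8.12% and 7.70%. Leaving out wild-type replicate 1 instead raised the count of separate members to 31, 30 of them lower beside 11.04% of all tested genes. Without wild-type replicate 2, 14 were lower and 2 higher, beside 11.9% of all tested genes in either direction. Leaving out null replicate 1 gave 20 lower and 1 higher, beside 11.15% and 9.54%. Leaving out null replicate 2 gave 26 lower and 4 higher, beside 18.4% in either direction. Weighting libraries by their fitted variance (array weights) gave a median of -0.06, with 54 of 75 lower and 0 members past 0.05, where 136 of the 16634 tested genes passed. There, 18 members had an unadjusted p below 0.05, counted in either direction. The share of all tested genes at that level under this weighting was not counted, so the 18 cannot be set against it. The smallest adjusted p of a member under that weighting was 0.0628 (limma), and the fit of the weights stopped before converging.

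**Figure D3:**
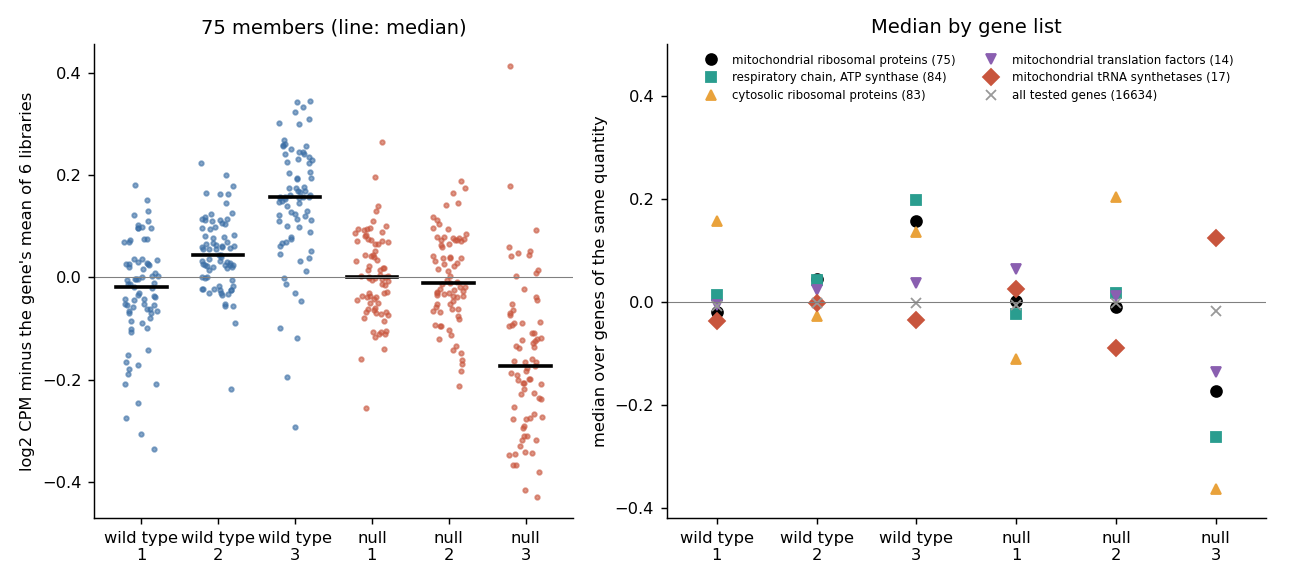
Left, log2 CPM of each of the 75 tested members minus its mean over the 6 libraries, by library, with the median as a line. Right, the median of the same quantity for the members, 4 other gene lists and all tested genes; the members' median is highest in wild-type replicate 3 (0.16) and lowest in null replicate 3 (-0.17), while that of all tested genes stays near 0.

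Genes that work with the mitochondrial ribosome did not all follow its proteins. None of the genes in the lists below passed an adjusted p of 0.05 (limma). Of 7 ribosomal proteins of the mitochondrion that carry other symbols, 5 were lower and 2 higher, with a median of -0.18. Among them Aurkaip1 stood at -0.21 ± 0.12, Mrp63 at -0.26 ± 0.16, Chchd1 at -0.23 ± 0.15 and Ict1, a release factor built into the large subunit, at -0.18 ± 0.15 (SE). Mitochondrial translation factors were 9 lower and 5 higher, with a median of -0.03. Mtif3, an initiation factor, stood at -0.27 ± 0.14 (SE), and Tsfm, an elongation factor, at 0.16 ± 0.19 (SE). Mtrf1, of the release factor family, stood at -0.19 ± 0.15 and Oxa1l, which inserts new proteins into the inner membrane, at -0.14 ± 0.12 (SE).

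Assembly and rRNA modification factors were divided evenly, with 11 lower, 10 higher and a median of 0.00. Gtpbp10, a GTPase of large-subunit assembly, stood at -0.22 ± 0.12 and Nsun4, an rRNA methyltransferase, at -0.19 ± 0.15 (SE). Dhx30, an RNA helicase, stood at 0.24 ± 0.16 and Rpusd4, a pseudouridine synthase, at -0.13 ± 0.10 (SE). Mitochondrial aminoacyl-tRNA synthetases, which charge the tRNAs for this ribosome, were 10 higher and 7 lower, with a median of 0.04. Aars2 stood at 0.43 ± 0.27, Cars2 at 0.18 ± 0.11 and Fars2 at -0.15 ± 0.10 (SE). These lists share the mitochondrial translation pathway with the members, yet their medians lay near that of all tested genes.

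Genes for transcription and replication of mitochondrial DNA were 5 lower and 4 higher, with a median of -0.07. Polrmt, the mitochondrial RNA polymerase, measured 3.93, 4.39 and 3.93 log2 CPM in wild type and 4.31, 4.21 and 5.31 in null. Polg, the DNA polymerase of mitochondria, measured 5.64, 5.97 and 5.75 in wild type and 5.94, 5.82 and 6.84 in null. For both, null replicate 3 was the high library and the other null libraries lay within the wild-type range. Ssbp1, the single-strand binding protein, stood at -0.20 ± 0.12 and Peo1, the helicase, at 0.10 ± 0.13 (SE). Among regulators of nuclear genes for mitochondria, 5 of 8 were higher, with a median of 0.06. Pprc1, a coactivator, measured 5.92, 6.13 and 5.70 in wild type and 6.23, 5.92 and 7.47 in null, with null replicate 3 again far above the rest. Without that library the differences went from 0.53 to 0.18 for Polrmt, from 0.41 to 0.09 for Polg and from 0.62 to 0.16 for Pprc1. Yy1 stood at 0.31 ± 0.18, Esrra at 0.33 ± 0.21 and Myc at 0.09 ± 0.24 (SE). With null replicate 3 left out, the medians were 0.02 for the DNA list and 0.08 for the regulators. They were then 0.00 for translation factors, with 9 of 14 higher, -0.03 for assembly factors, 0.02 for tRNA synthetases and -0.07 for ribosomal proteins under other symbols. Genes encoded by mitochondrial DNA were not analysed, since the expression table held no symbol starting with mt-.

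A pair of larger groups leaned the way the members did. Of 84 tested respiratory chain and ATP synthase subunits, 78 were lower in null, with a median of -0.17. Among them 18 were separate downward, beside 6.02% of all tested genes. Ndufs5 of complex I measured 4.64, 4.87 and 4.98 log2 CPM in wild type and 4.44, 4.40 and 3.73 in null, a difference of -0.64 ± 0.21 (SE; adjusted p = 0.755, limma). Ndufc2 stood at -0.27 ± 0.12, Cox6c at -0.24 ± 0.11 and Cox7a2 at -0.24 ± 0.11 (SE). Of 83 cytosolic ribosomal proteins, 79 were lower, with a median of -0.18, and 1 was separate downward, beside the same 6.02%. Rpl41 stood at -0.27 ± 0.12, Rps29 at -0.27 ± 0.14, Rpl10l at -0.21 ± 0.11 and Rpl3l at 0.47 ± 0.24 (SE). In null replicate 3 the median gene stood at -0.26 in the respiratory chain list and at -0.36 in the cytosolic ribosomal list, lower than the members' -0.17. In null replicate 2 the cytosolic list stood at 0.20 and the members at -0.01. With null replicate 3 left out, the respiratory chain list had 75 of 84 lower and a median of -0.08, and 18 were separate, beside 8.40% of all tested genes. The cytosolic list then had 69 of 83 lower and a median of -0.04, and Ndufs5 stood at -0.41 ± 0.13 (SE). All these values come from the same 6 libraries.

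Markers of the cells of the tissue differed in direction between lists. Separate markers are counted below, beside 6.02% of all tested genes separate downward and 5.06% upward. Lists given without such a count had no separate marker. All 5 red blood cell markers were lower in null and 4 were separate, with a summed level of 1477 to 1776 CPM in wild type and 717 to 1255 in null. The 8 macrophage and leukocyte markers in the table were all lower, 2 of them separate, with summed levels of 109 to 160 CPM in wild type and 97.2 to 130 in null. Germ cell markers were 12 of 16 higher, 4 of them separate (Sohlh2, Sohlh1, Kit and Lin28a), with summed levels of 1688 to 1897 CPM in wild type and 1830 to 2048 in null. The remaining germ cell markers overlapped between genotypes, among them Ddx4 at 0.05 ± 0.09 and Dazl at -0.01 ± 0.08 (SE). Leydig cell markers were 5 of 7 lower, 2 of them separate. They summed to 676 to 872 CPM in wild type and 552 to 750 in null. Endothelial markers were 4 of 6 lower, 1 of them separate, with 180 to 230 CPM in wild type and 155 to 191 in null. The 3 tested adipocyte markers were lower, 1 of them separate. Their list summed to 18.5 to 82.0 CPM in wild type and 11.3 to 22.2 in null. Sertoli markers were 7 of 12 higher, with 3453 to 3751 CPM in wild type and 2979 to 3934 in null. Peritubular and stromal markers were 4 of 7 lower, at 3059 to 3150 and 2519 to 3824 CPM, and meiotic prophase markers 5 of 8 lower, at 426 to 517 and 442 to 508 CPM. No marker in these lists was at 0 reads in every library, and none passed the adjusted threshold (limma). Without null replicate 3, red blood cell markers were again 5 of 5 lower, macrophage markers 7 of 8, Leydig markers 5 of 7 and adipocyte markers 3 of 3. Endothelial markers were then 6 of 6 lower, germ cell markers 13 of 16 higher and Sertoli markers 10 of 12 lower. Peritubular and stromal markers were then 4 of 7 higher and meiotic prophase markers 5 of 8 higher. Their part in the member values was not tested.

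Few members lay near the targeted gene. Members lay on 17 autosomes, none on X or Y, with 10 on chromosome 11 and 8 on chromosome 17. Those on chromosome 4 within 20 Mb of Dmrtb1 were Mrpl37, 0.617 Mb away, and Mrps15, 18.4 Mb away. Mrpl37 measured 6.44, 6.42 and 6.40 log2 CPM in wild type and 6.44, 6.41 and 6.53 in null, a difference of 0.04 ± 0.09 (SE). Mrps15 measured 4.91, 5.16 and 5.28 in wild type and 5.26, 5.04 and 5.05 in null, a difference of 0.00 ± 0.14 (SE). For both, the genotypes overlapped.

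DMRT6 ChIP peaks were found at the starts of a number of members. A gene's 5′ end is the outer end of its mm9 coordinates in the expression table, and a peak counted when its middle lay within 1 kb of it. By that measure 19 of the 75 tested members had a peak, which is 25.3% with an exact 95% binomial interval of 16.0% to 36.7%, beside 16.0% of all tested genes. Within 100 bp the count was 14 members, or 18.7%, beside 6.76% of all tested genes. Within 10 kb it was 24 members, or 32.0%, beside 31.2%. The share of members was the higher one within 100 bp and 1 kb and about level within 10 kb. The interval takes genes as independent and covers counting error only. As rounded, its lower end equals the share of all tested genes, and no conclusion is drawn from it. A single ChIP library gives no replicate check.

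Expression level went with these shares. Among tested genes ranked into quintiles of mean log2 CPM, the share with a peak within 1 kb went from 6.07% in the lowest quintile to 24.9% in the highest. In the middle quintile 9 of 31 members had a peak, where the share of all genes was 16.7%. In the quintile above it 9 of 37 had one, where the share was 22.2%. Shares in other lists varied. Peaks lay within 1 kb of 6 of 9 genes for mitochondrial DNA transcription and replication, 3 of 7 mitochondrial ribosomal proteins under other symbols and 5 of 14 translation factors. The shares were 24.1% for cytosolic ribosomal proteins, 23.5% for mitochondrial tRNA synthetases, 21.4% for respiratory chain and ATP synthase genes and 19.0% for assembly factors, and 3 of 8 regulators had a peak. Bidirectional starts were also common, since 18 members (23.7%) had a gene on the opposite strand starting within 1 kb upstream, beside 11.9% of tested genes. Of the 19 members with a peak, 6 were of this kind.

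Of the 21 peaks within 1 kb of members, 12 had a score below 100. The median score of all 21 was 83.3, from 50.03 to 297, beside a median of 94.7 for all 14862 peaks. The score is the authors' own and describes only this list. The highest belonged to Mrps5, a small-subunit protein with a bacterial counterpart, at chr2:127412277-127412628 with a score of 297. That peak lay 505.5 bp upstream of Mrps5 and 377.5 bp from the 5′ end of its opposite neighbour Zfp661. Mrps18c followed with a score of 279 at chr5:101227573-101227856, a peak 68.5 bp downstream of its 5′ end and 95.5 bp from that of Helq. Helq, a DNA helicase gene that begins 27 bp from Mrps18c on the other strand, stood at -0.01 ± 0.14 (SE) where Mrps18c stood at -0.26 ± 0.14.

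Mrpl2, whose bacterial counterpart lies near the peptidyl transferase centre, had a peak of score 247 at chr17:46782988-46783332, 18 bp upstream of its 5′ end. Mrpl12, part of the stalk that contacts elongation factors, had a peak of score 199 at chr11:120345785-120346071, 1 bp from its 5′ end. For Mrps27 the score was 163 and for Mrpl50 it was 116, but both peaks lay closer to an opposite neighbour. They were 61 bp from Mrps27 and 47 bp from Ptcd2, and 67.5 bp from Mrpl50 and 15.5 bp from Zfp189. Mrpl1 had a pair of peaks, with scores of 109 and 101, more than 600 bp to either side of its start. Mrpl43 had a score of 106, 43 bp upstream.

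The remaining 11 members with a peak within 1 kb had scores below 100. Within 100 bp these were Mrpl55 (86.1), Mrpl3 (83.3), Mrps33 (81.9), Mrpl19 (72.4), Mrps15 (58.3), Mrpl30 (58.1), Mrps2 (56.6) and Mrpl9 (55.3). Farther out were Mrpl39 (72.2), Mrpl20 (53.4) and Mrps28 (50.03). Mrpl19 had a second peak, with a score of 67.4, inside its gene. The highest score within 10 kb of any member, 655, was that of a peak 4173 bp upstream of Mrpl14, outside the 1 kb window. As the plot of distance and score shows, peaks gather at the starts, while that of highest score lies elsewhere.

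**Figure D4:**
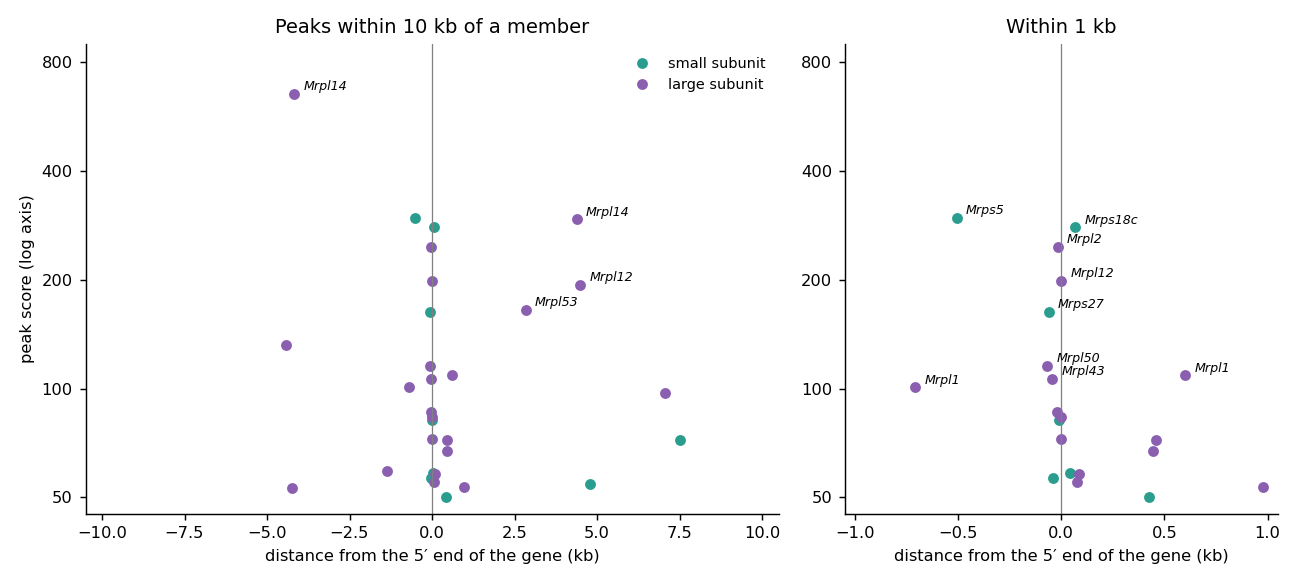
Score of each DMRT6 ChIP peak, on a log axis, against the distance of its middle from the 5′ end of the member, in kb, with negative values upstream; left within 10 kb, right within 1 kb. Green points are small-subunit and purple points large-subunit members; 21 peaks lie within 1 kb, from 50.03 to 297, and the highest, 655, lies upstream of Mrpl14.

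Members with and without a peak had similar differences, and the contrast between them was not tested. The 19 members with a peak within 1 kb had a median difference of -0.12, with 16 lower and 3 higher. The 56 without had a median of -0.11, with 50 lower. Mrps18c was the only member with a peak among the 8 lower members of smallest p, whereas Mrpl19 and Mrpl3, with higher null means, both had a peak at the start. Mrps5, with the highest score, measured 6.08, 6.28 and 6.43 log2 CPM in wild type and 6.20, 6.30 and 6.27 in null, a difference of -0.01 ± 0.11 (SE). Binding was mapped in adult testis and expression at P8, so cell content differs between the measurements.

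Promoter sequences were compared through the RefSeq table, whose windows run from 250 bases before to 50 bases after a gene's start. Windows were found for 67 of the 76 members, 11549 tested genes and 27025 genes in all. Searched on both strands, with N for any base, were the DMRT core ACANTGT, the ETS pattern CCGGAAG, the NRF1 pattern GCNTGCGC, the YY1 pattern ATGGCGG, the NF-Y pattern GCCAAT and the E-box CACGTG. None of these patterns contains another. ETS matches were found in 35.8% of members, beside 18.6% of tested genes and 9.93% of all genes. NRF1 matches were found in 31.3% of members, beside 21.2% of tested and 11.2% of all genes. YY1 matches were found in 19.4%, beside 8.62% of tested and 4.69% of all genes. At least 1 of these 3 patterns was present in 45 members, or 67.2%, beside 39.99% of tested genes.

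The remaining patterns were at or below the share of tested genes, or close to it. NF-Y matches were found in 10.4% of members and 21.9% of tested genes, and E-boxes in 7.46% and 11.5%. The DMRT core was found in 7.46% of members, which are Mrpl20, Mrpl45, Mrpl47, Mrpl48 and Mrps27, beside 5.13% of tested genes and 8.62% of all genes. Among the 17 members with both a peak within 1 kb and a window, 2 had a DMRT core match, Mrps27 and Mrpl20. Among the 50 with a window and no such peak, 3 had one. Member windows had a median GC content of 58.0%, beside 60.7% for tested genes. A match describes these letters only, and the absence of one says nothing about binding.

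**Figure D5:**
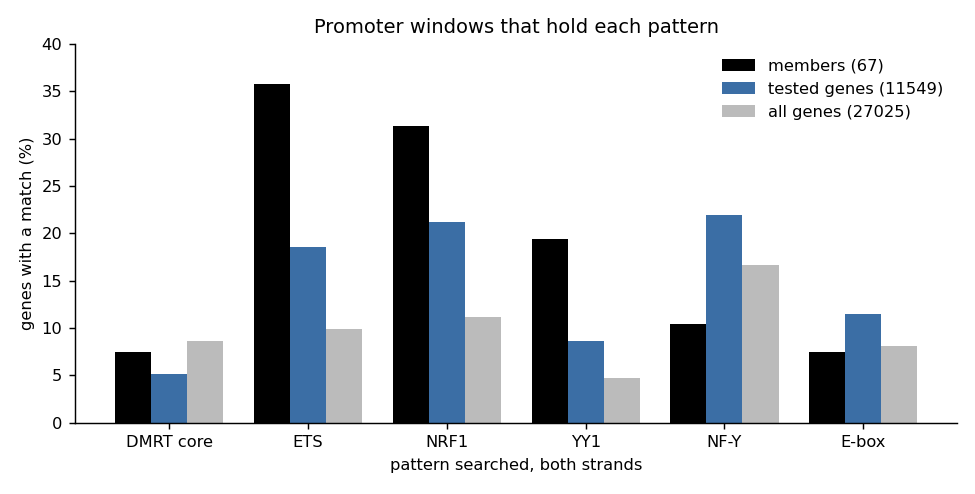
Share of genes, in percent, whose RefSeq promoter windows hold at least 1 match to each of 6 patterns on either strand, for members (black), tested genes (blue) and all genes (grey). ETS, NRF1 and YY1 bars are highest for members (35.8%, 31.3% and 19.4%), while the NF-Y bar of members (10.4%) is lower than that of tested genes (21.9%).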

How the data were processed

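RNA was sequenced from 6 P8 testis samples. The authors deposited 1 table of log2 CPM values for 22744 Ensembl genes with mm9 coordinates. Per the submitters' processing notes, the tools included STAR (2.3.0e), Bowtie2, edgeR and Picard, and the build was mm9. Read counter, strand use and annotation release: not given in the sources used here. Whole reads recovered from the values (100% whole, tolerance 1e-06) gave the depths. The authors deposited a peak score for each of 14862 ChIP peaks; the file name gives MACS 1.4, and the scale of the score is not stated.

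Genes with a mean of at least 0 log2 CPM, 16634 in all, were tested with limma-trend (limma 3.58.1, R 4.3.3), genotype as the only term and Benjamini-Hochberg adjustment at 0.05, after a check on simulated data. No pseudocount was added. No exact permutation test was run, since 0.1 is the smallest p that 3 libraries against 3 allow. Named are members by p, up to 8 per direction, by level, up to 5 at each end, those with a peak within 1 kb, those within 20 Mb of Dmrtb1, the Mrps18 genes, and up to 4 genes of smallest p per pathway list, of which 1 is not reported here. Members, lists and tests were chosen with earlier results of these data known. Alternatives covered filters, scaling, weights, voom, left-out libraries and peak windows. Promoter sequences are from RefSeq, build GRCm38.p6, matched by symbol or gene ID, and no coordinates were converted.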

Additional observations from a re-analysis of the deposited data

How the results depend on the processing

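In the 18 alternatives of the expression fit, 0 members passed an adjusted p of 0.05 (limma); the smallest adjusted p was 0.0628, under array weights, whose fit stopped before converging. The median member difference stayed below 0, from -0.16 with wild-type replicate 1 left out to -0.06 with wild-type replicate 3 left out, and to -0.02 with both replicates 3 left out. Quantile normalization gave -0.15 and median centring -0.16. Deviations of same-numbered libraries correlated at -0.09, -0.22 and -0.04, and those of differently numbered ones at -0.14 to 0.23. With 3 libraries per genotype this check cannot exclude pairing. With the replicate block the median was -0.11 and 0 members passed. Members whose genotypes did not overlap numbered 10 to 31 with 1 library left out, 17 with both replicates 3 left out and 6 among members that overlap no other gene. Over all tested genes the separate share with 1 library left out ran from 8.12% to 18.4% downward and from 7.70% to 18.4% upward. Fewer libraries, or fewer members, enter those counts. All 8 named lower members kept their sign in each alternative, and 3 of 8 named higher ones did. The lower ones were picked by smallest p from 66 members and the higher ones from 9, so these counts cannot be compared. Members whose groups did not overlap could not change sign when libraries were left out. Mrpl37 turned to -0.00117 under quantile normalization, -0.00255 under median centring and -0.00261 with both replicates 3 left out. With both left out Mrps30 turned to -0.0456. With 1 library left out Mrps30 ran from -0.0405 to 0.187, Mrps18b from -0.0677 to 0.153, Mrpl14 from -0.0134 to 0.174 and Mrpl3 from -0.027 to 0.196. The causes were not tested. Members with a peak numbered 57 within 50 kb (76.0%, beside 64.2% of tested genes). There were 8 (10.7%) with peaks of score 100 or more, beside 6.46%, and 8 with the higher-scored peaks of the list split at its median, beside 7.03%.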

Other observations

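Pseudogenes of members, which the naming rule leaves out, are listed in the same table. Mrpl23-ps1 measured 4.75, 4.80 and 4.86 log2 CPM in wild type and 4.63, 4.66 and 4.46 in null, and Mrpl23 itself 3.71 ± 0.04 (SD, n = 3) in wild type. Mrpl48-ps measured 4.75, 4.71 and 4.84 in wild type and 4.75, 4.80 and 4.55 in null. Mrps36-ps1 measured 3.88, 4.12 and 4.30 in wild type and 4.18, 4.24 and 3.74 in null, and Mrps36 itself 3.86 ± 0.17 (SD, n = 3) in wild type. Mrps36-ps2 measured 2.94, 3.12 and 3.27 in wild type and 2.99, 3.13 and 2.62 in null. Reads of a gene and its near-identical copy may be split between rows, so the levels of Mrpl23, Mrpl48 and Mrps36 are uncertain. Ccdc142, which contains Mrpl53, drew 160, 203 and 190 reads from wild-type libraries and 197, 200 and 335 from null ones, where Mrpl53 had at most 3.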
